A study of Mus musculus with 12 samples.

Results

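Granzymes, perforin and the receptors of natural killer (NK) cells were followed here as 10 genes, the cytotoxic genes Gzma, Gzmb, Gzmc, Gzmk, Prf1, Nkg7 and Fasl and the receptor genes Klrk1, Klrd1 and Ncr1. They were chosen by name, through the current or an older symbol of each probe, and account for 12 of the 41174 gene probes and 10 of the 27670 gene names on the array. The tumors were mouse mammary tumors described as ShcA-null (Shc1 encodes ShcA, an adaptor protein of receptor tyrosine kinases), 8 in number, and each was hybridised beside RNA pooled from NIC mammary tumors. In the NIC model the MMTV promoter drives an activated Neu (ErbB2) receptor together with Cre recombinase, so Cre is directed to the mammary epithelium. Whether Cre also acted in leukocytes of the tumors was not tested. Expression was measured on 12 two-colour Agilent arrays, the first array of each tumor with tumor RNA in Cy5 and a dye-swapped second array for tumors 1 to 4. Age, strain, the deleted part of Shc1, the number of tumors in the pool and whether the 8 tumors came from separate animals are not stated in the labels. The p-values therefore measure the spread between these 8 samples, against a pool that counts as 1 control sample with no spread of its own.

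Cytotoxic lymphocytes store perforin and granzymes in secretory granules. Perforin, the product of Prf1, opens pores in the target cell membrane, and granzymes, a family of serine proteases, enter through them and cut proteins of the target cell. Fas ligand, from Fasl, kills instead through the death receptor Fas, and NK receptors such as NKG2D (Klrk1), CD94 (Klrd1) and NKp46 (Ncr1) set whether an NK cell releases its granules. In tumors these genes are used as signs of infiltrating NK and CD8 T cells. In whole tumor RNA, fewer cells of a type and less RNA per cell cannot be told apart.

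The labels of the swapped arrays were in doubt, which bears on every value below that uses them. Over the 30838 probes kept, the swapped array labelled tumor 1 correlated best with the first array of tumor 1 (Pearson's r = 0.57 across probes). The swapped array labelled tumor 2 correlated best with tumor 3 (0.817, against 0.169 with tumor 2), the one labelled tumor 3 with tumor 4 (0.392 against 0.134), and the one labelled tumor 4 with tumor 8 (0.681 against 0.294). The member probes went the same way: the mean absolute difference in log2 ratio between the swapped and the first array, over the 12 probes, was 1.10 for the array labelled tumor 2 set against tumor 2 and 0.397 set against tumor 3. It was 0.874 and 0.256 for the array labelled tumor 3, and 0.538 and 0.296 for the one labelled tumor 4. The Shc1 probe, whose place relative to the deleted part is not known, was at a log2 ratio of -2.05 on the first array of tumor 3 and -2.22 on the swapped array labelled tumor 2, and between -0.00 and 0.74 on the other 10 arrays. The means of the tested members are therefore given with the arrays as labelled, on the 8 first arrays alone and with each swapped array given to the tumor it matched best (the best match). Values of other genes are as labelled, with the calls that these assignments lost.

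The probes of the granzyme genes are shown first, because the members are close relatives and a shared stretch could carry signal from one gene to another. From each 60-base probe a stretch of 30 bases is printed, with the longest run it shares with a probe of another granzyme gene in capitals.
Gzmb A_51_P333274: ccccgagaATGTTATctaatgctagtcatc
Gzmc A_51_P138510: gtcccagttccaaagttcttACAACAGagc
Gzmk A_51_P166556: cctggaatctatacgcTATTAActaagaaa
Gzma A_51_P162794: gatgAAAAACActataattttcatcctgta
The shared runs were 6 or 7 bases long. No member probe shared a run of 18 bases with a probe of another gene. Probes were compared only with other probes, not with the transcripts of other genes. Signal carried over from a related gene was therefore not tested. In the mm7 coordinates of the files, the Gzmb probe lies at chr14:51126432-51126491 and the Gzmc probe at chr14:51099611-51099670, both on the minus strand of the same granzyme cluster. The Gzma and Gzmk probes lie at chr13:110251676-110251735 and chr13:110327790-110327849, also on the minus strand. The Klrd1 probe at chr6:129621685-129621744 (plus strand) and the Klrk1 probe at chr6:129635158-129635217 (minus strand) are neighbours in the NK gene complex. The Prf1 probe is at chr10:60821367-60821426 and the Ncr1 probe at chr7:3902600-3902659, both on the plus strand. Which exon or untranslated region each probe falls in was not analysed here.

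Neighbouring granzyme genes had unlike patterns across the tumors, so the 250 bases upstream of the start of Gzmb and Gzmc are shown, with those of Prf1, which was highest in the same tumor as Gzmc, and Gzmk. The sequences are RefSeq's, on GRCm38.p6, on the strand of each gene (plus for Prf1, minus for the granzymes), and 9 of the 10 members had an entry. Capitals mark matches, on either strand, to an ETS motif (CAGGAAG), a T-box motif (AGGTGTGA), a Runt motif (TGTGGTT), a CRE (TGACGTCA), an AP-1 motif (TGANTCA), a STAT motif (TTCNNNGAA) or a TATA box (TATAAA).
Gzmb chr14:56262335-56262584: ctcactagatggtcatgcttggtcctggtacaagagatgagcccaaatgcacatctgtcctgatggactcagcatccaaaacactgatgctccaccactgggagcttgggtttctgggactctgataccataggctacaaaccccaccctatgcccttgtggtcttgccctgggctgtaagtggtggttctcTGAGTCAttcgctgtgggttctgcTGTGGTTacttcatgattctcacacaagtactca
Gzmc chr14:56234658-56234907: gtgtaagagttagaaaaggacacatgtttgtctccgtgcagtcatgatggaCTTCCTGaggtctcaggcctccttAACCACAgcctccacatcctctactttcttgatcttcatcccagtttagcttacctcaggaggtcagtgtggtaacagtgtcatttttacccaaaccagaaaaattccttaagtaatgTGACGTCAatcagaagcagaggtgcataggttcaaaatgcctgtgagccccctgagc
Prf1 chr10:61297586-61297835: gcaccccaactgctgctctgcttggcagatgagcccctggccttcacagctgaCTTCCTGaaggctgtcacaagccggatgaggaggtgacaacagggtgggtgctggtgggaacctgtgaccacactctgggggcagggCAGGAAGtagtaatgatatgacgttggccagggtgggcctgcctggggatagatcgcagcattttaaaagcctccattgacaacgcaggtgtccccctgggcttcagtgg
Gzmk chr13:113180966-113181215: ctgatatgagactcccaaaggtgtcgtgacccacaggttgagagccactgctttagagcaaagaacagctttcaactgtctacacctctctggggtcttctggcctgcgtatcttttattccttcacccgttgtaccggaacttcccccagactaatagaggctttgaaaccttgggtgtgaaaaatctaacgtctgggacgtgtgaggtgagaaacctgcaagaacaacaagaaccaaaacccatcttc
Gzmb held 1 Runt match at -34 and 1 AP-1 match at -58 from the start. Gzmc held a Runt match at -175, an ETS match at -199 and a CRE at -57. Prf1 held 2 ETS matches, at -197 and -110, and Gzmk held none of the 7 motifs. Among the other members, Gzma, Klrk1 and Ncr1 held 1 Runt match each and Fasl 1 ETS match, while Nkg7 held 1 ETS, 1 T-box and 1 STAT match. Of 32851 promoter windows of the same length, 4.40% held the Runt motif, 10.8% the ETS motif, 6.75% the AP-1 motif, 1.55% the CRE, 1.12% the T-box motif, 7.02% the STAT motif and 12.4% the TATA motif. The motifs were searched as letters, and a match is not a measured binding site.

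Of the 10 genes, 9 were bright enough to test and Prf1 was not, since neither of its channels was well above background on an array of at least 4 tumors. Against the NIC pool, Gzmb (granzyme B, which cuts caspases and their substrates) was lower and Gzmk (granzyme K, a trypsin-like granzyme) was higher, by limma's test of the mean of 8 tumors with a Benjamini-Hochberg adjusted p under 0.05 over 20419 genes. The other 7 tested genes did not pass. In that test 7.05% of all genes were called higher and 11.1% lower, so 1 member of 9 in each direction is near those shares. The first arrays alone gave the same 2 calls, against 8.86% of all genes higher and 13.7% lower. The best-match assignment also gave these 2 calls, against 4.63% and 7.96%. The mean was above 0 for 7 of the 9 genes and the median of their means was 0.26, against -0.02 over all genes tested. With median centring in place of loess the members' median was 0.28 (the mean of Fasl) and the median over all genes 0.17, so the size of this gap depends on the normalization.

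**Figure D1:**
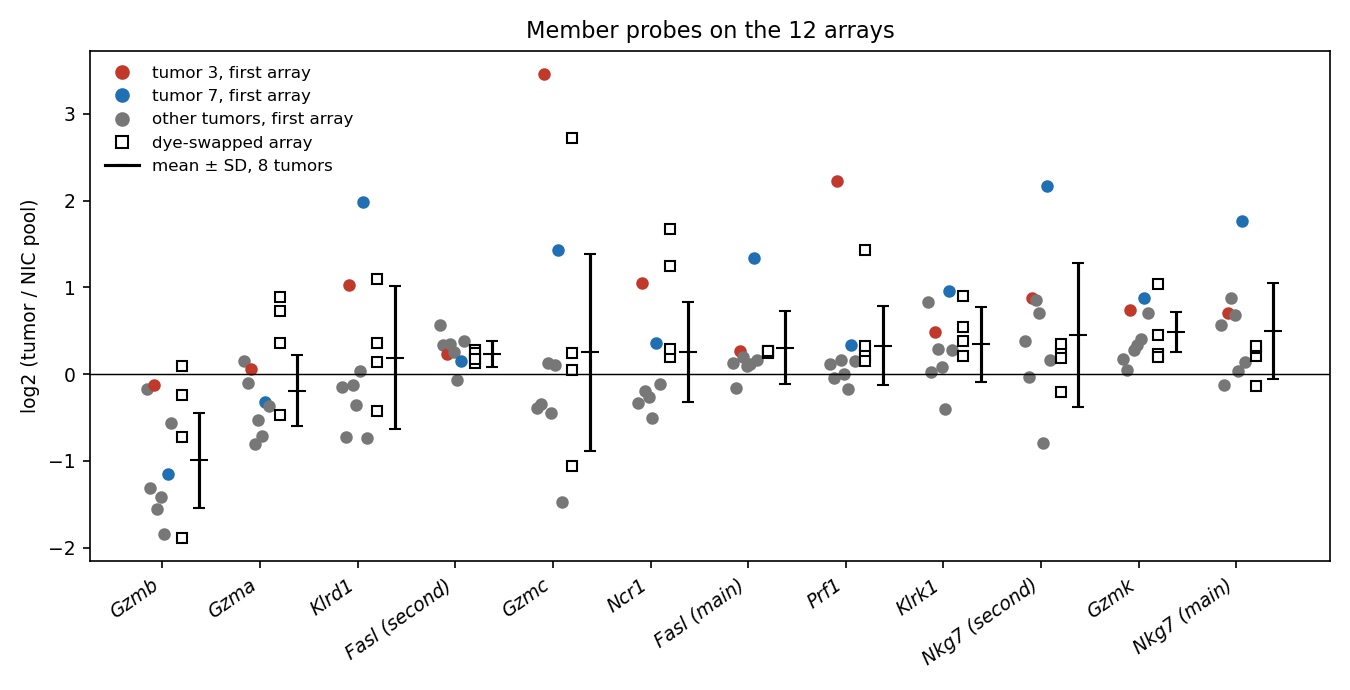
Log2 ratio of tumor over NIC pool (vertical axis) for the 12 member probes, ordered by their mean. Circles are first arrays (tumor 3 red, tumor 7 blue, the others grey), open squares are dye-swapped arrays, and bars give the mean ± SD of 8 tumors with swapped arrays as labelled. Gzmb lies below 0 on 11 of 12 arrays and Gzmk above 0 on 12 of 12, while the highest first-array value of every probe except Gzma and the second Fasl probe belongs to tumor 3 or 7.

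Gzmb was the member with the largest mean difference. On the first arrays its log2 ratio was lowest in tumor 6 (-1.84), had a median of -1.23 and was highest in tumor 3 (-0.13), followed by tumor 1 (-0.17). On the swapped arrays it was 0.09, -0.24, -1.89 and -0.73 for the labels tumor 1 to 4. All 8 first arrays were thus below 0, with tumors 1 and 3 close to it and tumors 2, 4, 5, 6 and 7 below -1, and 1 swapped array was slightly above 0. The mean over 8 tumors was -0.99 ± 0.55 (SD, n = 8), a 1.99-fold lower level (limma adjusted p = 0.00669). All 8 tumor means were below 0, as for 10.6% of all genes (11.7% on the first arrays), and the exact two-sided sign-flip permutation test gave p = 0.0078, the smallest value 8 tumors allow. The first arrays alone gave -1.02 ± 0.65 (limma adjusted p = 0.0092) and the best match -1.04 ± 0.68 (0.0170). Within the slide of tumors 1 to 4 the first arrays averaged -0.79 ± 0.75 (SD, n = 4), and within the slide of tumors 5 to 8 -1.24 ± 0.54 (SD, n = 4).

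The spread of Gzmb between arrays was wider in the tumor channel than in the pool, which was the same RNA on every array. The normalized log2 intensity of the pool was between 10.7 and 11.2 on all 12 arrays, a range of 0.518. That of the tumor RNA ran from 9.17 to 11.2, a range of 2.04. Both channels were well above background on every array, which makes Gzmb, with Klrd1 and the main Nkg7 probe, one of the best measured members. Gzmb was called lower under each of the 27 alternative settings, with means between -1.14 and -0.83.

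**Figure D2:**
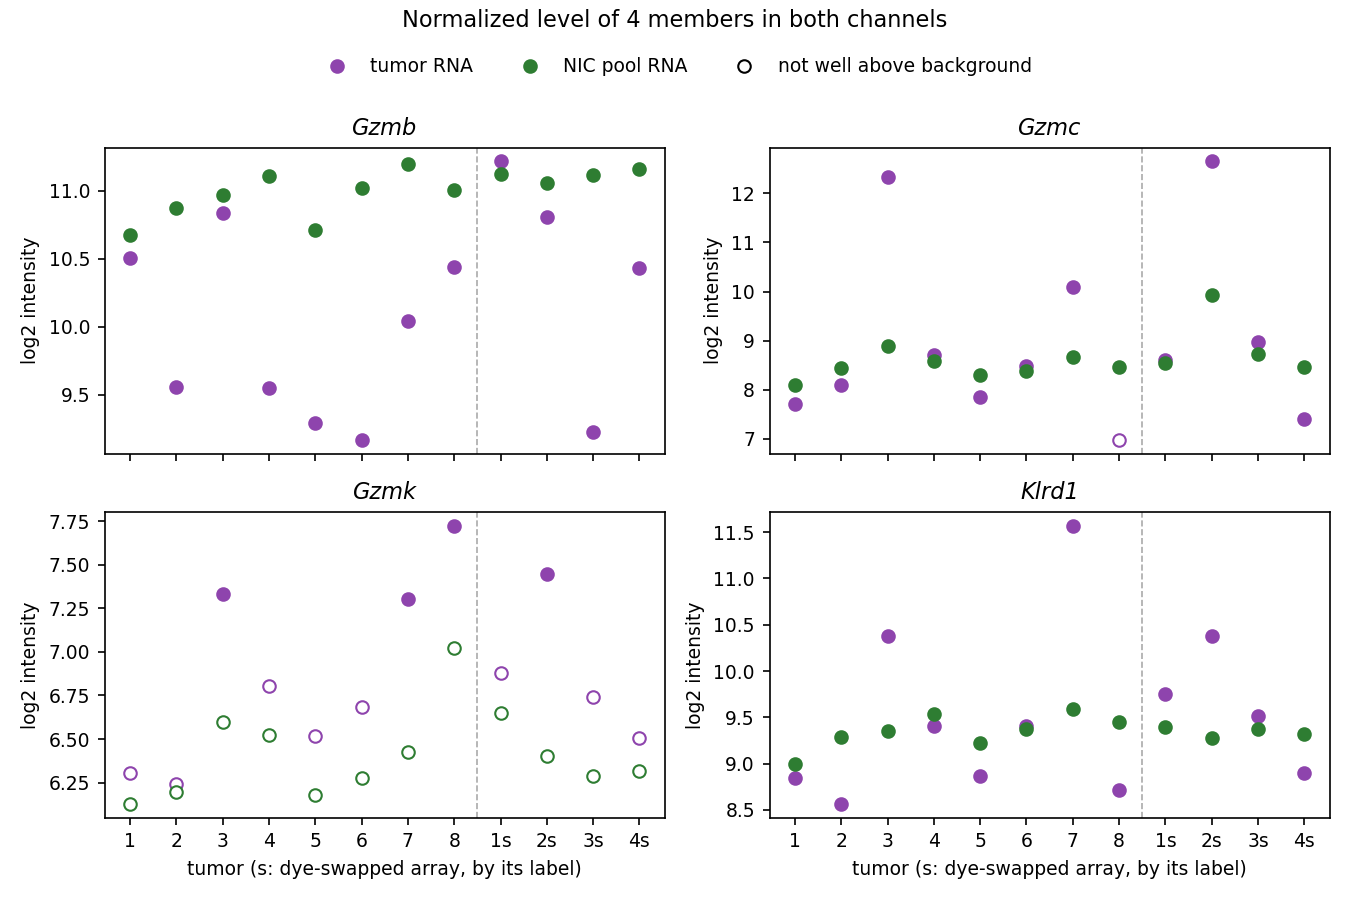
Normalized log2 intensity (vertical axis) of Gzmb, Gzmc, Gzmk and Klrd1 in tumor RNA (purple) and NIC pool RNA (green) on each array, with open circles where the spot was not well above background. The pool stayed between 10.7 and 11.2 for Gzmb while the tumors spread from 9.17 to 11.2, and the pool was never well above background for Gzmk.

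Gzmk was above the pool on all 12 arrays in the normalized log2 ratios, at a low intensity. Its log2 ratio on the first arrays was lowest in tumor 2 (0.04), had a median of 0.37 and was highest in tumor 7 (0.88), with tumor 3 next (0.73). The swapped arrays lay between 0.19 and 1.04, the highest being the one labelled tumor 2. The mean was 0.49 ± 0.23 (SD, n = 8, limma adjusted p = 0.0118), 8 of 8 tumors were higher, as for 5.36% of all genes (6.35% on the first arrays), and the exact sign-flip p was 0.0078. The first arrays gave 0.44 ± 0.29 (limma adjusted p = 0.0262) and the best match 0.45 ± 0.30 (0.0416). Within slides, the first arrays averaged 0.31 ± 0.30 for tumors 1 to 4 and 0.58 ± 0.25 for tumors 5 to 8 (SD, n = 4 each).

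The pool was not well above background for Gzmk on any of the 12 arrays, and the tumor RNA was on 4. Where the reference has only such a bound, the fold is the mean tumor level over the mean of, on each array, the lowest signal among probes well above background or the probe's own if higher, and by this rule Gzmk was at least 1.14-fold higher in the tumors. The mean tumor level in it includes the 8 arrays on which the tumor RNA was itself not well above background, so this bound rests largely on such readings. The call was lost with median centring in place of loess (0.34, limma adjusted p = 0.101), with a dye term and the best-matched tumor as a block (0.45, 0.182) and on the first arrays without tumor 7 (0.38, 0.0617). Its mean was 0.83 in the authors' value table and 1.24 from the deposited processed log ratios. Those processed ratios were exactly 0 on 5 of 12 arrays, the first arrays of tumors 1, 2, 5 and 6 and the swapped array labelled tumor 4, so 1.24 rests on the other 7.

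Gzma, granzyme A, is a trypsin-like granzyme found in NK and T cells. Its first arrays ran from -0.81 in tumor 4 through a median of -0.35 to 0.15 in tumor 1, with 6 of 8 below 0. The swapped arrays stood at 0.72, 0.89 and 0.36 for the labels tumor 1, 2 and 4 and at -0.47 for tumor 3. Their sign was opposite to that of the first array for the labels tumor 2 (-0.10), 3 (0.06) and 4 (-0.81), and by best match for the label tumor 4 alone, against tumor 8 (-0.37). The mean was -0.19 ± 0.41 (SD, n = 8, limma adjusted p = 0.378), the first arrays gave -0.33 ± 0.35 (0.101) and the best match -0.17 ± 0.46 (0.497). The tumor RNA was well above background on 6 of 12 arrays. Gzma did not follow Gzmk, the neighbouring gene: in tumor 4 Gzma stood at -0.81 and Gzmk at 0.28.

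Gzmc, granzyme C, belongs to a group of granzyme genes particular to rodents and showed the widest spread of the members. The first array of tumor 3 stood at 3.46, tumor 7 at 1.43 and tumor 8 at -1.47, and the other 5 between -0.44 and 0.12. On the swapped arrays the one labelled tumor 2 stood at 2.72 and the one labelled tumor 4 at -1.06, beside 0.05 and 0.24. The high and low arrays were thus paired by best match (tumor 3 with the label tumor 2, tumor 8 with the label tumor 4), not by label. The tumors fell on both sides of the pool, with a mean of 0.25 ± 1.13 (SD, n = 8, limma adjusted p = 0.643), and 6.94% of all genes had a larger SD. On the first arrays the mean was 0.31 ± 1.51 (0.657), and -0.14 without tumor 3, and by best match it was 0.32 ± 1.35 (0.633). The pool itself read 9.94 in log2 intensity for Gzmc on the swapped array labelled tumor 2, against 8.10 to 8.88 on the other 11 arrays.

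In tumor 3 the related gene Gzmd, a neighbour in the granzyme cluster that is not among the 10 genes, stood at 3.67 on the first array, and at 2.46 on the swapped array labelled tumor 2. In tumor 7, where Gzmc stood at 1.43, Gzmd stood at -0.69. Gzmd had a mean of 0.19 ± 0.97 (SD, n = 8, limma adjusted p = 0.697). Of the 6 other granzyme genes on the array 2 were bright enough to test, Gzmd and Gzmm, and neither was called, against 7.05% of all genes higher and 11.1% lower. Gzmm, granzyme M, had a mean of 0.46 ± 0.71 (limma adjusted p = 0.188).

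Prf1 had no test. Its log2 ratio was 2.22 on the first array of tumor 3 and 1.43 on the swapped array labelled tumor 2. On the other 10 arrays it was between -0.17 and 0.34. The tumor RNA was well above background on 4 of 12 arrays and the pool on 4, namely the first array of tumor 3 and the swapped arrays labelled tumor 2, 3 and 4. Prf1 was thus measured in few tumors, and the high values came from the pair of arrays that also held the highest Gzmc values. Without the intensity requirement its mean was 0.33 ± 0.46 (SD, n = 8).

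Nkg7, a membrane protein of cytotoxic granules that takes part in their release, had 2 probes whose starts lie 334 bases apart on chromosome 7 (plus strand). On the main probe the first arrays ran from -0.13 in tumor 2 through a median of 0.62 to 1.76 in tumor 7. The second probe ran from -0.79 in tumor 6 through 0.55 to 2.16 in tumor 7. Both probes were highest in tumor 7, and in tumor 6 they differed, at 0.03 on the main probe and -0.79 on the second. The swapped arrays were lower, between -0.14 and 0.32 on the main probe. Its mean was 0.50 ± 0.56 (SD, n = 8), with a limma adjusted p over all genes of 0.0904. The first arrays gave 0.58 ± 0.60 (0.0621) and the best match 0.48 ± 0.60 (0.141). As labelled, 8 of 8 tumors were higher, as for 5.36% of all genes (exact sign-flip p = 0.0078). On the first arrays alone and by best match, 7 of 8 were higher (exact sign-flip p = 0.0234 and 0.0391). Nkg7 was not called under any of the 27 alternative settings, where its adjusted p lay between 0.0588 and 0.194. Without tumor 7 the mean was 0.32.

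Klrk1 encodes NKG2D, an activating receptor that binds stress-induced ligands such as those of the Raet1 family. Its first arrays ran from -0.41 in tumor 6 through a median of 0.28 to 0.95 in tumor 7, with tumor 1 next at 0.84, and 7 of 8 were above 0. The swapped arrays were 0.90, 0.55, 0.38 and 0.20, so both arrays labelled tumor 1 were high. The mean was 0.34 ± 0.43 (SD, n = 8, limma adjusted p = 0.141), the first arrays gave 0.32 ± 0.44 (0.167) and the best match 0.33 ± 0.45 (0.201). The pool was not well above background on any of the 12 arrays and the tumor RNA was on 5. The rule used for Gzmk gave a bound of 1.07-fold for Klrk1, which was not called. That bound also includes arrays on which the tumor RNA was not well above background. Klrk1 was called higher in 3 of 26 alternative settings: the dye term with the labelled tumor as block, the deposited processed log ratios, which were exactly 0 on 3 of 12 arrays, and the fit without tumor 6.

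Klrd1 encodes CD94, which pairs with NKG2 proteins into receptors for the class Ib molecule Qa-1. Its first arrays were highest in tumor 7 (1.98) and tumor 3 (1.03), and between -0.73 and 0.03 in the other 6. The swapped array labelled tumor 2 stood at 1.09, and the other 3 between -0.42 and 0.36. The pool varied by 0.598 in log2 intensity over the 12 arrays while the tumors ranged over 3.01, from 8.56 to 11.6. The mean was 0.19 ± 0.82 (SD, n = 8, limma adjusted p = 0.639), and it was -0.07 without tumor 7. The first arrays gave 0.12 ± 0.93 (0.795) and the best match 0.19 ± 0.91 (0.688). Klrd1 in tumors 3 and 7 thus stood apart from the rest on a well measured probe, and the mean of 8 tumors did not.

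Ncr1 encodes NKp46, an activating receptor largely restricted to NK cells and related innate lymphoid cells. The spot of tumor 1 on its first array was marked as an outlier and left out. The other 7 first arrays ran from -0.51 in tumor 6 through a median of -0.20 to 1.05 in tumor 3, with tumor 7 next at 0.36 and 5 of 7 below 0. The swapped arrays were all above 0, at 1.25 and 1.68 for the labels tumor 1 and 2 and 0.19 and 0.28 for tumor 3 and 4. The mean was 0.26 ± 0.58 (SD, n = 8, limma adjusted p = 0.364), the first arrays gave 0.00 ± 0.54 (n = 7, 0.997) and the best match 0.24 ± 0.71 (0.501). Each channel was well above background on 7 of 12 arrays.

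Fasl, the ligand of Fas, had 2 probes on the minus strand of chromosome 1 whose starts lie 6777 bases apart, one of them spotted 10 times on each array. On that main probe tumor 7 stood at 1.34 and the other first arrays between -0.16 and 0.27. The 10 spots on the array of tumor 7 had an SD of 0.122. The swapped arrays lay between 0.24 and 0.27. The second probe read 0.16 in tumor 7, inside its range of -0.06 to 0.57 over the first arrays, so the probes disagreed in that tumor. The tumor RNA was not well above background there on the second probe. The main probe had a mean of 0.31 ± 0.42 (SD, n = 8, limma adjusted p = 0.179), and the second 0.23 ± 0.15. The first arrays gave 0.27 ± 0.45 (0.243) on the main probe and the best match 0.29 ± 0.45 (0.258). On the main probe 8 of 8 tumors were higher as labelled, as for 5.36% of all genes (exact sign-flip p = 0.0078). On the first arrays alone and by best match, 7 of 8 were higher (exact sign-flip p = 0.039 and 0.031).

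Across the tumors, high values gathered in tumors 3 and 7. The median log2 ratio of the tested members on the first arrays was 0.95 in tumor 7 and 0.71 in tumor 3, and between -0.26 and 0.14 in the other 6. In tumor 7, 4 members exceeded a log2 ratio of 1 (Gzmc, Nkg7, Klrd1 and Fasl) and Gzmb was below -1. In tumor 3, 3 members exceeded 1 (Gzmc, Klrd1 and Ncr1), beside Prf1, which was not tested. No member exceeded 1 on the other 6 first arrays, while Gzmb was below -1 in tumors 2, 4, 5 and 6 and Gzmc in tumor 8. The swapped array labelled tumor 2, which matched tumor 3, had a member median of 0.89 with 4 members above 1, and the other swapped arrays lay between 0.19 and 0.26. The share of all genes past these limits on each array is not given, so the counts have no background rate beside them. Arrays also differed in spread: the median absolute deviation of the log2 ratio over all gene probes was 0.427 in tumor 3 and 0.511 in tumor 7. On the first arrays it ran from 0.354 in tumor 4 to 0.729 in tumor 6. Gzmb departed from this order in tumor 7, at -1.15, while its highest first arrays were those of tumors 3 and 1, both below 0. Gzma departed too, with its highest first array in tumor 1 (0.15) and tumor 7 at -0.32.

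**Figure D3:**
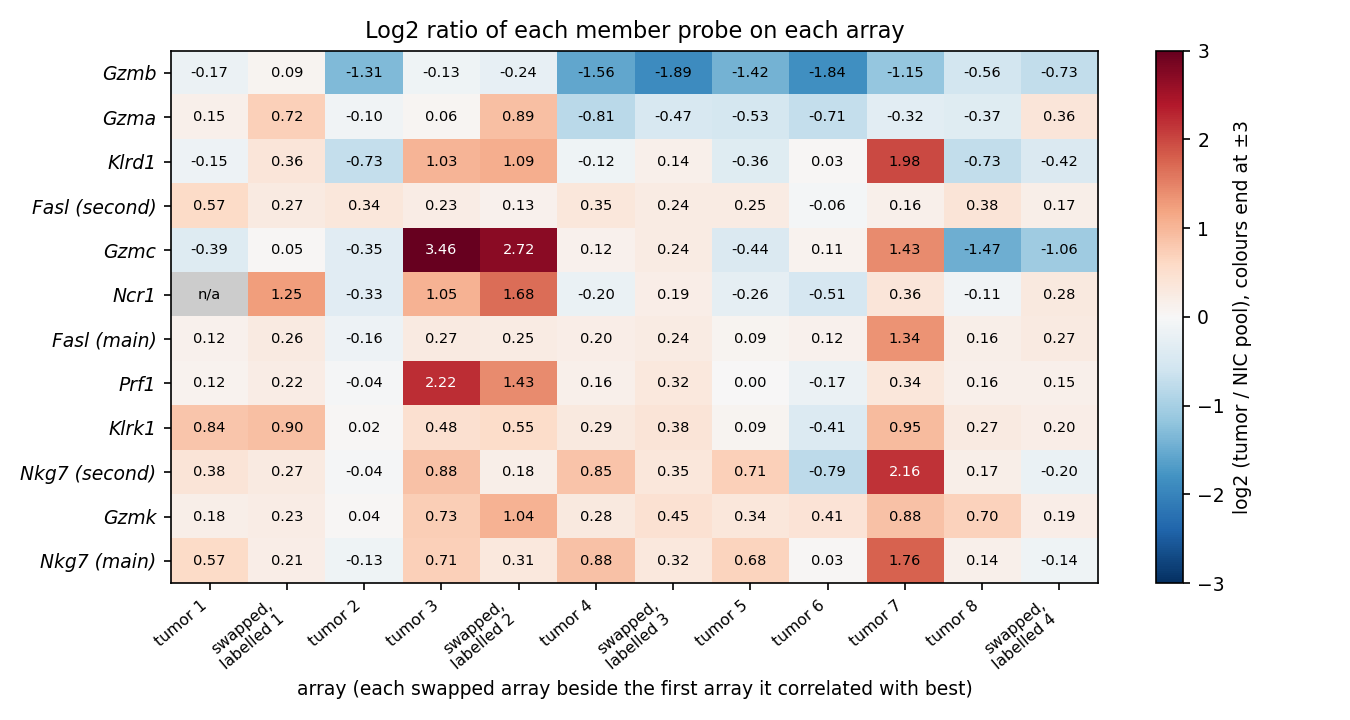
Log2 ratio of tumor over NIC pool for each member probe (rows, ordered by mean) on each array (columns), with each swapped array placed beside the first array it correlated with best. Gzmc at 3.46 and 2.72 and Prf1 at 2.22 and 1.43 are high on the first array of tumor 3 and on the swapped array labelled tumor 2, and tumor 7 holds the highest first-array values of Klrd1, Klrk1, Gzmk, both Nkg7 probes and the main Fasl probe.

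The genes closest to the 2 most variable members, by the mean absolute difference in log2 ratio over the 8 tumors and among 20422 genes, were as follows. For Gzmc they were Ccr2 (0.300), a chemokine receptor of monocytes, Cxcl15 (0.321), a chemokine, and S100a4 (0.324), a calcium-binding protein. For Klrd1 they were Tmem182 (0.160), Slc22a3 (0.169), an organic cation transporter, and Gimap1 (0.184), a GTPase of lymphocytes. With swapped arrays by best match their ranks were 11, 2 and 9 for Gzmc and 8, 1 and 6 for Klrd1.

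The counts over companion gene lists that follow stand beside 7.05% of all genes called higher and 11.1% called lower as labelled, and 4.63% and 7.96% by best match. Genes that serve the granule were mixed. Of 15 measured genes of granule storage, release and granzyme control, 2 were higher, 2 lower and 11 not called, with a median of 0.18, and by best match 0 were higher and 1 lower. Srgn, the proteoglycan that holds granzymes in the granule, was at 1.21 ± 1.05 (SD, n = 8, limma adjusted p = 0.0313), but the first array of tumor 3 stood at 5.44 and the next at 0.97, and the call was lost on the first arrays (0.168) and by best match (0.126). Calr, calreticulin, was higher at 0.63 ± 0.48 (0.0265). Rab27a, a GTPase needed to dock granules, was lower at -0.85 ± 0.61 (0.0182), and so was Igf2r, the mannose 6-phosphate receptor that can take up granzyme B, at -0.54 ± 0.48 (0.0482), though its sign turned with median centring (0.17). Calr and Igf2r were not called by best match (0.0548 and 0.114), and Rab27a was (0.0495). Serpinb9, an inhibitor of granzyme B, had a mean of -0.15 ± 0.88 (0.741) and was singled out after its value was seen.

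Of 22 other NK receptors and adaptors that were bright enough to test, 2 were higher, 1 was lower and 19 were not called, with a median of 0.33, and by best match 2 were higher and 0 lower. Klrb1b (0.96 ± 0.41, limma adjusted p = 0.00308), an inhibitory receptor of the NKR-P1 family, and Klra2 (0.80 ± 0.33, 0.00358), a Ly49 receptor, were higher on all 8 first arrays. Klrb1a, an activating relative of Klrb1b, was lower at -0.79 ± 0.57 (0.0195), with tumor 3 above 0 at 0.29, and was not called by best match (0.0525). No probe of Klrb1a or Klrb1b had both channels well above background on every array. Members of the Klra and Klrb1 families are close in sequence, and cross-hybridisation among their probes was not tested. Of 8 tested ligands of NK receptors, 1 was called: Raet1a, an NKG2D ligand, at 0.68 ± 0.55 (n = 7, limma adjusted p = 0.0413). It was not called on the first arrays (0.382) or by best match (0.187).

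Of 14 tested inducers of cytotoxic differentiation, 6 were higher and 1 was lower, with a median of 0.45. They were led by Stat4 (0.89 ± 0.82, limma adjusted p = 0.041), Il12rb1 (0.81 ± 0.49, 0.0105) and Ifng (0.75 ± 0.42, 0.00876), the transcription factor, a receptor chain and a product of interleukin 12 signalling. Stat4 was not called on the first arrays (0.0827) or by best match (0.0564). Ifng RNA was above the pool on all 12 arrays, from 0.22 to 1.66, the highest in tumor 7. No probe of Ifng or Il12rb1 had both channels well above background on every array. Their means ran from 0.52 to 1.80 for Ifng and from 0.59 to 1.30 for Il12rb1 over the alternative settings. Il15, the cytokine that keeps NK cells alive, was lower at -0.41 ± 0.24 (0.0245), and was singled out after its value was seen. It was not called by best match (0.0649) or with median centring (-0.11, 0.650). Its first arrays ran from -1.22 in tumor 1 to -0.10 in tumor 7. The swapped arrays read 0.17, -0.27, 0.50 and 0.14 for the labels tumor 1 to 4, so its direction rests on the first arrays. By best match 2 of the 14 genes were called higher and 0 lower. Of 11 genes of the death receptor pathway, 2 were higher (Tnfsf10, the ligand TRAIL, 0.82 ± 0.55, 0.015, and Casp8, caspase 8, 0.54 ± 0.28, 0.0115) and 1 lower, as also by best match. The lower gene was Cflar, the inhibitor of caspase 8 activation, at -0.40 ± 0.27 (0.0338) and stood at 0.0076 with median centring.

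On the first arrays leukocyte markers were highest in tumors 3 and 7, T cell markers in tumor 7 and mast cell markers in tumor 3. The median of 14 T cell markers was 3.14 on the first array of tumor 7, with 11 of 13 measured genes above a log2 ratio of 1 (the share of all genes above 1 on that array is not given). The T cell median was between 0.11 and 0.90 in the other tumors, at 0.90 in both tumor 3 and tumor 4. The median of 10 leukocyte markers was 1.92 in tumor 3 and 1.70 in tumor 7, and at most 0.77 elsewhere. The median of 9 mast cell markers was 2.32 in tumor 3, 1.26 in tumor 6 and 1.03 in tumor 7, and between -0.52 and 0.84 in the rest. The 22 other NK receptors followed the members, at 0.85 in tumor 7, 0.75 in tumor 3 and at most 0.21 elsewhere. Epithelial markers, which define the labelled tissue, had medians between 0.00 and 1.25 on the first arrays, and of -0.57, 1.22, -0.02 and -0.05 on the swapped arrays labelled tumor 1 to 4. Krt8, a keratin of luminal cells, was at 0.85 ± 0.56 (limma adjusted p = 0.0137), but all 4 swapped arrays read below 0 (-0.90 to -0.48) while all 8 first arrays read above it (0.58 to 2.11). The sign of Krt8 thus turned with dye and slide, whichever tumor a swapped array was given to. Other markers of the epithelial list also read below 0 on all 4 swapped arrays and above it on most first arrays. The part of these cell types in the members' values was not tested.

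Calls over the 8 tumors differed between these marker lists, and stand beside the same 7.05% higher and 11.1% lower of all genes. Of 14 T cell markers 1 was higher and 1 lower (1 and 0 by best match). The higher one was Lck (1.53 ± 0.90, limma adjusted p = 0.00676), the kinase of the T cell receptor, which was above 0 on every array. Cd3e, a chain of that receptor, was called lower at -1.11 ± 0.58 (0.0369) on only 4 tumors, and read 1.18 on its only usable first array, so its direction rests on the swapped arrays, and it was not called by best match (0.0848). The leukocyte list had 4 of 10 genes higher (3 by best match), led by Cytip (1.19 ± 0.79, 0.012), Cd52 (0.87 ± 0.61, 0.0171) and Itgb2 (0.81 ± 0.65, 0.0272). Itgb2 was not called on the first arrays (0.0692) or by best match (0.0738). Of 9 mast cell markers 2 were higher (1 by best match), Hdc (0.92 ± 0.57, 0.0106) and Tpsb2 (0.68 ± 0.62, 0.0447), the latter called neither on the first arrays (0.0524) nor by best match (0.0839). Of 8 markers of plasmacytoid dendritic cells 1 was lower and 1 higher, as also by best match. Tcf4 was lower at -1.63 ± 0.79 (0.00322) and Irf8 higher at 0.75 ± 0.56 (0.022), while Siglech, the defining marker, was at -0.32 ± 0.45 (0.174). Of 10 epithelial markers 5 were higher, and 2 by best match, with Krt5 at 1.33 ± 0.67 (n = 7, 0.00631) and Krt14 at 0.86 ± 0.63 (0.0194), and Esr1 was lower at -1.04 ± 0.84 (0.0254). Krt14 was not called on the first arrays (0.0625) or by best match (0.0754). The 5 higher epithelial markers included Krt8 and 1 other, which both read below 0 on every swapped array.

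**Figure D4:**
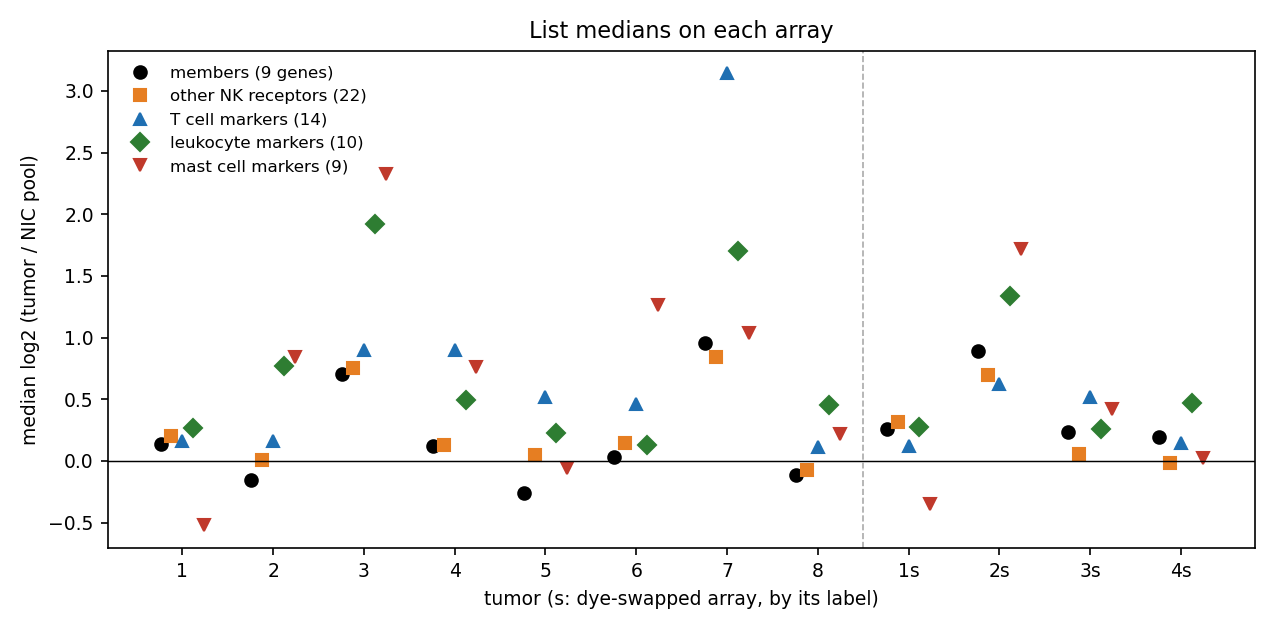
Median log2 ratio of tumor over NIC pool for the tested members and 4 marker lists on each array (horizontal axis, tumor number, s for a swapped array by its label). The members are highest in tumors 7 (0.95) and 3 (0.71), where leukocyte markers stand at 1.70 and 1.92 and T cell markers at 3.14 and 0.90. T cell markers also stand at 0.90 in tumor 4.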

How the data were processed

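Each of 12 arrays held 1 tumor and the pooled reference, read with Agilent Feature Extraction 9.5.3.1 per the file headers. Intensity values of foreground and local background were deposited as raw scanner output. A log10 ratio of red over green, from signals that Feature Extraction had background-subtracted and dye-normalized, was deposited too. So were flags, other columns of 0 or 1, that mark saturated, outlying or clearly detected spots. A value table on the log2 scale came from the authors, turned to tumor over reference, with column medians between -0.0715 and 0.137. The normalization, scale and centring behind it are unknown.

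From the raw intensities, normexp (offset 50) and within-array loess that ignored the 1639 control spots were run in limma 3.58.1 (R 4.3.3 with data.table, version 1.17.8). Before normexp, spots with a foreground over 100 below local background were set aside: 12 on the swapped array of tumor 1 and 3 on the first array of tumor 2. Including them shrank the spread (median absolute deviation of the log2 ratio) from 0.396 to 0.134 and from 0.367 to 0.218. Outlier spots (0.470% to 13.7% of an array) were dropped. Spots of a probe, then arrays of a tumor, were averaged, and channel levels were taken after Aquantile scaling. The intensity filter, either channel above background in 4 or more tumors, kept 30838 of 41174 probes. RefSeq GRCm38.p6 named probes by accession (22951), symbol (6659) or older symbol (3109), and 8455 retained their file name. The brightest probe stood for its gene. Means were compared with 0 by lmFit and eBayes with Benjamini-Hochberg adjustment, and by exact sign-flip permutation over tumors. The limma fit with its adjustment was tested on simulated log2 ratios of independent tumors. The steps before the fit were not tested in this way. The number of arrays limits the precision.

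Slide 1 carried tumors 1 to 4 and slide 2 tumors 5 to 8 on their first arrays, and slide 3 the swapped arrays, for which slide and dye cannot be told apart. The members and gene lists were chosen with earlier results of these data known. Named genes are the members, up to 3 called genes per list with the largest mean, the 3 genes nearest to each of the 2 members with the largest SD, and Shc1. Igf2r, Gzmd, Gzmm, Siglech, Krt8, Il15 and Serpinb9 were named after their values were seen. Alternatives changed the array assignment, dye term, slide, background, centring, filters, probe choice, value source and tumors included. Figures were drawn with matplotlib 3.10.9 and pandas 2.3.3.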

Additional observations from a re-analysis of the deposited data

Results flagged for a closer look

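For each of 44 probes or genes the highest or lowest first array was set against the other tumors by Dixon's criterion, and 9 stood apart from the rest of their group, of which 2 were among the 12 member probes. Chance gives such a result in about 1 of 20 groups chosen without regard to their values. That rate does not apply to this set, since the 32 companion genes were named for their calls or after their values were seen, among them Gzmd, Siglech and Serpinb9.

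On the first array of tumor 3, Prf1 stood at a log2 ratio of 2.22, with the next tumor at 0.34. Krt5 stood at 3.99 (next 1.62), Krt14 at 3.67 (next 1.27), Srgn at 5.44 (next 0.97) and Tpsb2 at 2.70 (next 1.03) on the same array. Gzmd stood at 3.67 (next 0.30) and Siglech at 0.77 (next -0.19) there. On the first array of tumor 7, the main Fasl probe stood at 1.34, with the next tumor at 0.27. On the first array of tumor 6, Serpinb9 stood at -2.16, with the next tumor at -0.32. The swapped array that matched tumor 3 best also held high values of Prf1 (1.43), Krt5 (2.62), Krt14 (2.21), Srgn (4.51), Tpsb2 (1.69), Gzmd (2.46) and Siglech (0.92). The cause was not tested.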

How the results depend on the processing

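The count of members called lower was 1 under all 27 alternatives, and Gzmb was called in each. The count called higher was 1, and moved to 2 with the dye term and labelled block and with the processed log ratios, and to 0 with median centring, with both channels required above background on every array, with the dye term and best match among 8 tumors, and on first arrays without tumor 7. Leaving out 1 tumor gave 1 to 2 members higher and 1 lower. The companion genes called higher numbered 26 and moved to 17 by best match among tumors 1 to 4 and with slide as block, to 14 by best match among all 8 with or without the dye term, and to 16 on first arrays without tumor 7. Leaving out 1 tumor gave 16 to 32. Those called lower numbered 8 and moved to 4 with the dye term and either best match and by best match among all 8, to 3 with median centring and to 5 with slide as block. Leaving out 1 tumor gave 3 to 8. Among the named companions, the calls of Calr, Cd3e, Cflar, Esr1, Igf2r, Il15, Irf8, Itgb2, Klrb1a, Raet1a, Srgn, Stat4 and Tpsb2 were lost on leaving out at least 1 tumor, the highest adjusted p being 0.113 for Cd3e and 0.107 for Igf2r.

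Gzma reversed to 0.021 with the dye term and labelled block. On first arrays without tumor 3, Gzmc reversed to -0.14, Klrd1 to -0.012 and Ncr1 to -0.17, and without tumor 7 Klrd1 to -0.15 and Ncr1 to -0.059. Leaving out 1 tumor, Klrd1 lay between -0.066 (without tumor 7) and 0.32. Cd3e reversed to 1.18 on first arrays, with and without tumor 7, to 1.03 and 1.81 in the value table (all and first arrays) and to 1.00 with outlier spots kept. Cflar reversed to 0.0076 with median centring, and Serpinb9 to 0.036 with the dye term and labelled block and 0.022 with median centring, and it lay between -0.29 and 0.14 with 1 tumor left out (the latter without tumor 6). Igf2r reversed to 0.17 with median centring. Gzmd reversed to -0.065 with the processed log ratios and -0.23 on first arrays without tumor 3, and lay between -0.057 (without tumor 3) and 0.38 with 1 tumor left out. Median centring moved the median of all genes by 0.19 to 0.17 and the calls from 1440 higher and 2260 lower to 2659 and 1035. The cause of these changes was not tested. The within-tumor correlation after the dye term was 0.0384 as labelled and 0.942 by best match among 8. The best match was chosen by correlation in these same data, so the higher value cannot be read as support for it. The best match among all 8 tumors, normexp on all spots, the value table on first arrays and first arrays without tumors 3 or 7 were chosen after seeing the data. No paired analysis was possible because all tumors belong to 1 group set against a pool.

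Signal over background limits Gzmk, Klrk1 and Prf1, whose pool RNA was well above background on 0, 0 and 4 of 12 arrays.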
